A study of Mus musculus with 4 samples.

Results

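The genes described here are 36 genes of glycolysis and the cellular response to low oxygen, read in mouse bone marrow progenitors with and without the hedgehog signal transducer Smoothened (Smo). They were fixed as a list of gene symbols, and every probe set (a group of probes on an Affymetrix array that reads 1 transcript or gene) that carries 1 of these symbols alone in the array's annotation was taken. That gave 75 probe sets of 34 genes, out of 45037 probe sets and 18193 named genes on the array. Gpi1 and Eno1 matched no such probe set and were not analysed here. A gene is represented by its brightest probe set, judged on the mean of the 4 arrays, and a probe set was tested when that mean lay above the median probe set, a log2 intensity of 7.23. Of the 34 genes 30 were past this filter and 4 were below it (Eno2, Slc16a3, Pdk2 and Pdk4). Counts below are over the 30.

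There were 4 arrays, 1 for each group. WT LSK and WT MP came from mice of the genotype Smo flox/flox, Mx1Cre-, and Smo-deficient LSK and Smo-deficient MP from mice of the genotype Smo flox/flox, Mx1Cre+. All mice, controls included, thus carried floxed Smo alleles, and all received 3 intraperitoneal injections of polyI:C at 20 ug/g. PolyI:C induces interferon, which drives the Mx1 promoter, so recombination is not restricted to blood cells. LSK cells (lineage-negative, c-Kit+, Sca-1+) hold the stem cells and multipotent progenitors, and MP cells (lineage-negative, c-Kit+, Sca-1-) are the myeloid progenitors, a mixture of granulocyte-monocyte, erythroid and megakaryocyte precursors. Marrow was taken 6 weeks after polyI:C and pooled over 4 mice of mixed sex per genotype before sorting. Each genotype is therefore 1 pool from which both populations were sorted. The age of the mice is not in the labels, and the strain reads C57BL/6x129 for WT LSK, with the last number counting up by 1 to C57BL/6x132 over the other arrays. In bulk RNA of this kind, fewer cells of a type and less RNA per cell cannot be told apart.

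Glycolysis splits glucose into pyruvate, which either enters the mitochondria through pyruvate dehydrogenase or is reduced to lactate and exported. Hypoxia-inducible factors, dimers of an oxygen-labile alpha subunit and the stable subunit Arnt, bind hypoxia response elements and raise most glycolytic genes. When oxygen is present, prolyl hydroxylases of the Egln family mark the alpha subunit for degradation through the von Hippel-Lindau protein. Hematopoietic stem cells live in poorly oxygenated marrow and are known for a glycolytic metabolism with stabilised Hif-1 alpha protein. That control acts mainly on protein, which these arrays do not read.

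The labels were checked first. The targeted gene Smo read 10.02 (LSK) and 9.72 (MP) in WT cells, in log2 intensity on its brightest probe set, against 6.96 and 7.94 in Smo-deficient cells. A second probe set went from 10.81 and 10.40 to 6.13 and 6.36, and the last was dim on all arrays. Of 7 stem cell markers measured, 6 were higher in LSK, and all 9 granulocyte and monocyte progenitor markers and all 10 erythroid progenitor markers were lower there. The Sca-1 gene that defines the LSK gate was not analysed here. Kit, whose protein both gates require, differed by 0.22 and did not pass. The arrays correlated across probe sets with Pearson's r from 0.980 to 0.994. A sign of RNA integrity, the excess of the 3' over the 5' control probe set, moved with the population for Actb but not for Gapdh. For Actb, the 3' control probe set exceeded the 5' one by 1.55 and 1.53 (log2) in LSK and by 1.34 and 1.31 in MP. For Gapdh the excess was 1.57 (WT) and 1.78 (Smo-deficient) in LSK and 1.59 (WT) and 1.60 (Smo-deficient) in MP, so that Smo-deficient LSK was the highest array. The part of RNA integrity in the differences below was not tested.

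LSK cells carried more RNA of the glucose transporter genes Slc2a1 and Slc2a3 and of the hypoxia factor gene Hif1a. The isozyme genes Hk2, Aldoc and Ldhb were also higher there. No gene of lower glycolysis passed the test, but only 3 were past the filter. One of them, Pkm, differed by as much as Hk2 (0.48 each) and narrowly did not pass (adjusted p = 0.0548 by limma). Of the 30 genes 10 rose in LSK (33.3%, against 16.4% of all 11904 genes past the filter) and 3 fell (10%, against 7.54%), by limma with the pool as a block and a Benjamini-Hochberg adjusted p under 0.05 over all probe sets. The 10 were Hif1a, Slc2a1, Slc2a3, Hk2, Pfkl, Pfkfb3, Aldoc, Ldhb, Bnip3 and Car9, and the 3 were Hk1, Aldoa and Slc16a1. At a size of at least 1.5-fold, 5 rose (9.69% of all genes did) and 1 fell (2.92%). The median difference over the 34 genes was 0.19, against -0.04 over all named genes. LSK and MP differed in the same direction in both pools for 26 of the 30 genes, or 86.7%, against 76.9% of all genes. With the pool left out of the model, 2 genes rose, Aldoc and Slc2a1, and 0 fell. The block takes up the difference between the pools, and the error term is then the change of the LSK to MP difference from 1 pool to the other. As the pools differ in genotype, any true effect of genotype on that difference enters the error, and with 2 pools the precision is low. Each SE given here is the moderated one from limma. It draws on the spread of all tested probe sets and is not the spread of the 2 pools alone.

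**Figure D1:**
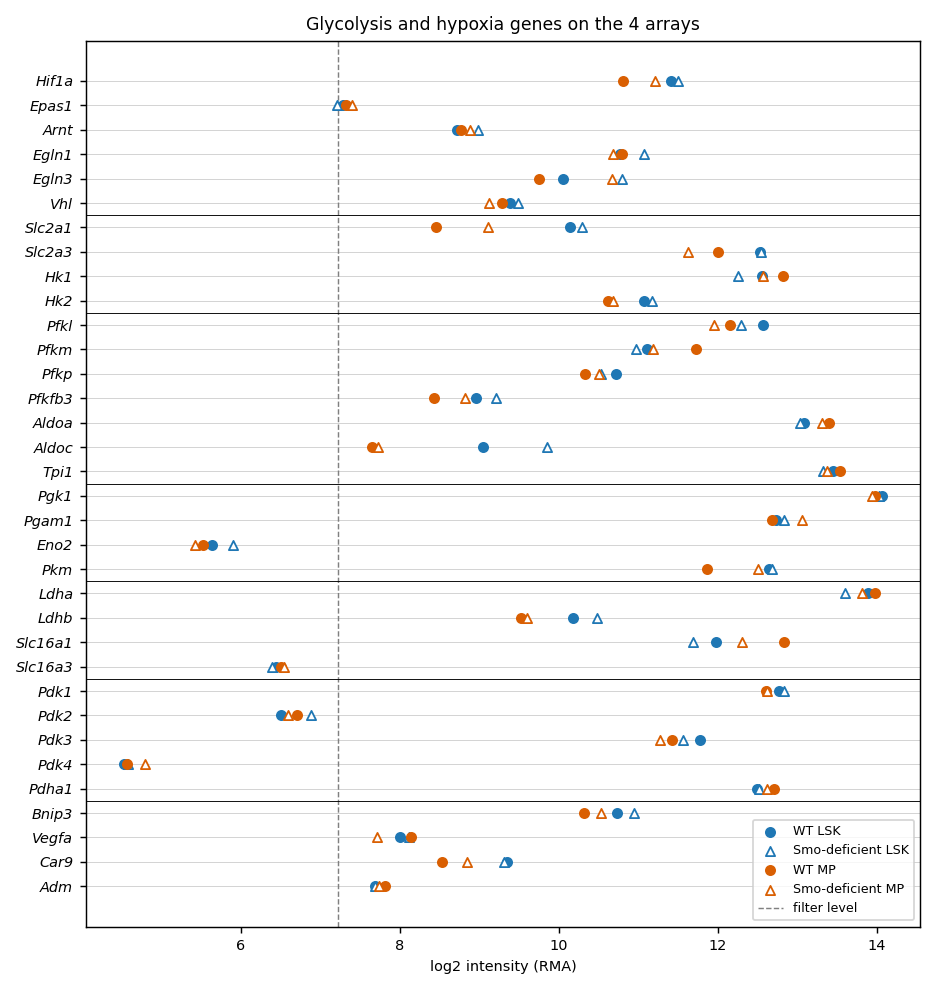
Log2 intensity (x axis, RMA) of the 34 measured genes (rows, ordered by role) on the 4 arrays. Blue symbols are LSK, orange symbols MP, filled circles WT and open triangles Smo-deficient, and the dashed line is the filter level of 7.23. Slc2a1, Aldoc and Ldhb show both LSK arrays to the right of both MP arrays, Slc16a1 shows the reverse, and Eno2, Slc16a3, Pdk2 and Pdk4 lie left of the line.

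Among the oxygen sensing genes, Hif1a was the 1 of 6 that passed, higher in LSK. Hif1a, the gene of the oxygen-labile alpha subunit, read 11.41 (WT) and 11.50 (Smo-deficient) in LSK, against 10.80 (WT) and 11.21 (Smo-deficient) in MP. Both LSK values lay above both MP values, and the mean difference was 0.45 ± 0.12 (moderated SE, 2 pools, adjusted p = 0.0365 by limma). The difference was 0.61 within WT and 0.28 within Smo-deficient cells. The other 2 probe sets past the filter gave 0.43 and 1.19 and passed too, so the direction held for all 3 while the size did not. The call was lost after quantile normalization (adjusted p = 0.0568 by limma), without the trend and without the block, and the adjusted p ranged from 0.00189 to 0.207 over the 9 alternatives. Epas1, which encodes the related Hif-2 alpha subunit, differed by -0.11 at a level barely past the filter, and Arnt, the partner subunit, by 0.02.

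The hydroxylase genes and Vhl, whose products lead to degradation of the alpha subunit, did not pass on their brightest probe sets. Egln1, the main oxygen sensor of the family, differed by 0.19 on its brightest probe set and by -0.45 on a second one that passed, so the pair had opposite signs. Vhl differed by 0.23 and Egln3 by 0.21. Without the Smo-deficient pool the sign of Arnt (-0.06) and of Egln1 (-0.01) was the opposite of the mean, and quantile normalization also turned Arnt to -0.09.

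All 4 genes of glucose entry and phosphorylation passed, 3 of them higher in LSK and 1 lower. Slc2a1, the gene of the glucose transporter Glut1, read 10.14 (WT) and 10.29 (Smo-deficient) in LSK, against 8.46 (WT) and 9.11 (Smo-deficient) in MP. The LSK values lay well clear of the MP values, by 3.21-fold within WT and 2.26-fold within Smo-deficient cells. The mean was 1.43 ± 0.15 (SE, adjusted p = 0.00146 by limma), and all 3 Slc2a1 probe sets passed, with 0.80 and 1.301 on the others. The call held under all 9 alternatives tried for it, with adjusted p from 0.000624 to 0.0339 by limma. Slc2a3, the gene of the high-affinity transporter Glut3, read 12.52 (WT) and 12.54 (Smo-deficient) in LSK, against 12.004 (WT) and 11.62 (Smo-deficient) in MP. Both LSK values were above both MP values. Its mean difference was 0.72 ± 0.11 (SE, adjusted p = 0.00602), and the second probe set past the filter gave 0.79. Both carry a suffix, _s_at or _x_at, that marks probe sets able to bind related transcripts as well.

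Hexokinase, which traps glucose in the cell by phosphorylation, parted by isozyme. Hk2, the isozyme under hypoxic control, read 11.07 and 11.18 in WT and Smo-deficient LSK against 10.61 and 10.68 in the MP samples, a difference of 0.48 ± 0.10 (SE, adjusted p = 0.0195 by limma). Hk1, the constitutive isozyme, went the other way, with 12.56 and 12.25 in LSK against 12.81 and 12.57 in MP. For Hk1 the Smo-deficient MP value was close to the WT LSK value, and the mean difference of -0.29 ± 0.07 (SE, adjusted p = 0.0351) was lost without the mean-variance trend (0.102, range 0.0102 to 0.316). A second Hk1 probe set gave -0.71 and passed.

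The promoters of Slc2a1 and Hk2 are shown because both rose in LSK and both hold the core of the hypoxia response element. The cores searched were ACGTG and GCGTG on both strands, in the 250 bases before each gene start in RefSeq (build GRCm38.p6). A CACGTG stretch holds ACGTG on both strands and counts as 2 overlapping matches. Capitals mark the matches in this and the later sequences, and where ACGTG or GCGTG lies on the other strand the capitals read CACGT or CACGC. Slc2a1 has GCGTG beginning 61 bases and ACGTG beginning 36 bases before the start, and Hk2 has ACGTG at 226 and 52 bases. Hk1, which fell, holds cores too, with 3 GCGTG matches (at 196, 15 and 12 bases) before 1 of its 2 starts and 0 before the other. A core thus did not set the isozyme that rose apart from the one that fell.
Slc2a1, chr4:119108495-119108744, plus strand: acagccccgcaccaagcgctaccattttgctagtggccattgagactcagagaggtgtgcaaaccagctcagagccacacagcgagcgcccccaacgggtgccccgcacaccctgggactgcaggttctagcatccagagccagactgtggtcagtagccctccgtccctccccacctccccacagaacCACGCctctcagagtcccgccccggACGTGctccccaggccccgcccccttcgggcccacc
Hk2, chr6:82774455-82774704, minus strand: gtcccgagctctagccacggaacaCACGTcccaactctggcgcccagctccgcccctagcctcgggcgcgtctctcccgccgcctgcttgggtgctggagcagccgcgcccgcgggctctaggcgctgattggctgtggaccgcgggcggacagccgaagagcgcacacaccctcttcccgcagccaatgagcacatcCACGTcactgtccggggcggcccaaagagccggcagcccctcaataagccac

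Of the 36 listed genes 34 had a promoter in the table (the others are Epas1 and Slc2a3), of which 30 held at least 1 core and 19 held ACGTG. That is 88.2% and 55.9%, against 60.2% and 24.8% of 9645 genes past the filter and 41.5% and 18.5% of all 27025 genes in the table. A gene counts here when any of its starts has a match. Per promoter the shares were 77.6% and 44.9% of 49, against 54.5% and 21.3% of 12289 for genes past the filter. The genes were listed for glycolysis and the response to low oxygen, so a high share of these cores may come from that choice. The shares are therefore a description of the list and no test of it. The median number of CG dinucleotides, which both cores contain, was 14 per promoter for these genes and 15 for genes past the filter. ACGTG was in the promoters of 6 of 9 genes that rose in LSK, of 2 of 3 that fell, and of 9 of 16 that did not pass. A match describes the letters only and does not show binding.

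In upper glycolysis 3 of 7 genes rose in LSK and 1 fell, and the aldolase isozymes went opposite ways. Aldoc, the aldolase isozyme best known from brain, had the largest difference of all 30 genes, with 9.05 (WT) and 9.85 (Smo-deficient) in LSK against 7.65 (WT) and 7.73 (Smo-deficient) in MP. The LSK and MP values did not overlap, and the difference was 1.76 ± 0.18 (SE, adjusted p = 0.00128 by limma). It was 1.40 within WT and 2.12 within Smo-deficient cells, and passed under all 8 alternatives tried for it. A second Aldoc probe set was below the filter, from 4.75 to 5.23 over the arrays.

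Aldoa, the aldolase isozyme found in most cells, was negative on all 5 probe sets past the filter. Its brightest probe set read 13.08 and 13.03 in LSK against 13.39 and 13.30 in MP, a difference of -0.30 ± 0.06 (SE, adjusted p = 0.0155 by limma). The other 4 ranged from -0.57 to -0.21, and 3 of them passed. The Aldoa call was lost without the trend (adjusted p = 0.0921 by limma) and without the block (0.117), and held under 6 of the 8 alternatives tried for it. All 5 carry the suffix _x_at, which marks probe sets that may also bind other transcripts.

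The phosphofructokinase genes, which encode the committed step, did not move together. Pfkl, the liver-type subunit, read 12.57 and 12.29 in LSK against 12.15 and 11.95 in MP and rose by 0.38 ± 0.08 (SE, adjusted p = 0.0189 by limma), but its other probe sets gave 0.18 and 0.08 without passing. The Pfkl call was lost by the median of its probe sets (adjusted p = 0.209 by limma), without the trend (0.0533) and without the block (0.2), and held under the other 6 alternatives, with 0.0171 the lowest. Pfkm, the muscle-type subunit, differed by -0.42 ± 0.12 (adjusted p = 0.0547), with -0.62 within WT and -0.22 within Smo-deficient cells. Pfkm passed under 3 of 9 alternatives, quantile normalization among them (adjusted p = 0.0172, range 0.0172 to 0.283). Pfkp, the platelet-type subunit, differed by 0.21 and its second probe set by -0.09, and neither passed. Pfkfb3, which makes the activator fructose 2,6-bisphosphate, read 8.96 and 9.22 in LSK against 8.43 and 8.82 in MP and rose by 0.46 ± 0.11 (adjusted p = 0.0303). A dimmer Pfkfb3 probe set gave -0.10, and the Pfkfb3 call was lost by the median of both probe sets (adjusted p = 0.286 by limma), after quantile normalization (0.0721) and without the block (0.202), and held under the other 6 alternatives, with 0.0295 the lowest. Tpi1, the triose phosphate isomerase gene, differed by -0.07.

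**Figure D2:**
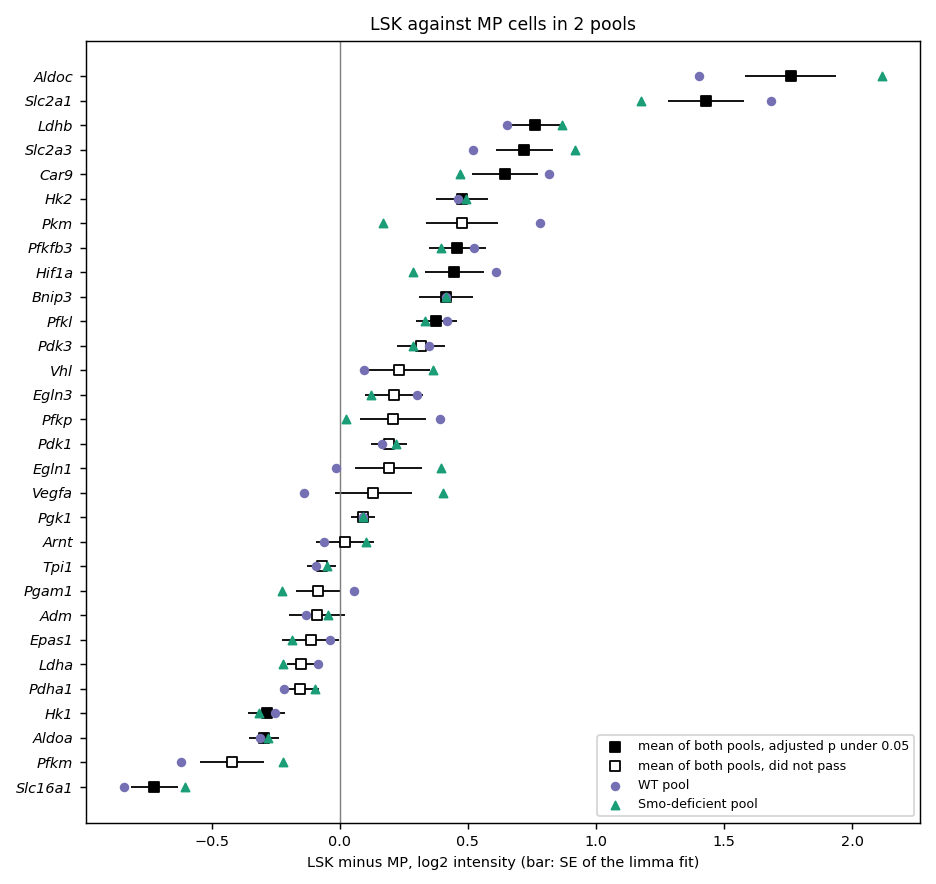
LSK minus MP in log2 intensity (x axis) for the 30 genes past the filter (rows, by size). Squares are the mean of both pools with the SE of the limma fit, filled where the adjusted p was under 0.05, and circles and triangles are the WT and Smo-deficient pools. Aldoc at 1.76 and Slc2a1 at 1.43 stand at the top, and Slc16a1 at -0.72 stands at the bottom.

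Lower glycolysis, the steps that make ATP and pyruvate, showed no gene that passed among the 3 past the filter. Pgk1, the phosphoglycerate kinase gene, read 14.07 and 14.02 in LSK against 13.98 and 13.93 in MP, a difference of 0.09 that its other 2 probe sets also gave (0.08 on each). Pgam1, the phosphoglycerate mutase gene, differed by -0.09. Eno2, the neuronal enolase gene, was below the filter, from 5.43 to 5.91. Pkm, the pyruvate kinase gene of most cells, read 12.65 and 12.67 in LSK against 11.86 (WT) and 12.50 (Smo-deficient) in MP. It differed by 0.48 ± 0.14 (SE, adjusted p = 0.0548 by limma), from 0.78 within WT and 0.17 within Smo-deficient cells, and passed under 2 of 9 alternatives.

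At the lactate branch the isozymes and the transporter parted. Ldhb, the lactate dehydrogenase subunit that favours lactate oxidation, read 10.17 (WT) and 10.48 (Smo-deficient) in LSK, against 9.52 (WT) and 9.61 (Smo-deficient) in MP. Both LSK values were above both MP values. It rose by 0.76 ± 0.12 (SE, adjusted p = 0.00621 by limma), and the other 3 probe sets gave more, from 1.09 to 1.80, and passed. Ldha, the subunit that favours lactate production, read 13.89 (WT) and 13.59 (Smo-deficient) in LSK and 13.97 (WT) and 13.81 (Smo-deficient) in MP, a difference of -0.15 (adjusted p = 0.0953) that did not pass. Slc16a1, the gene of the lactate transporter Mct1, read 11.98 and 11.69 in LSK against 12.82 and 12.30 in MP. All MP values were above all LSK values, and Slc16a1 fell by 0.72 on the log2 scale in LSK (SE 0.09, adjusted p = 0.00295). Slc16a3, the gene of the hypoxia-linked lactate exporter Mct4, was below the filter on all 4 arrays, from 6.40 to 6.54.

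The erythroid progenitor markers stand beside the Slc16a1 result, as they also fell in LSK. The summed intensity of the 10 markers was 49136 (WT) and 35113 (Smo-deficient) in LSK, against 120289 (WT) and 84712 (Smo-deficient) in MP. The defining marker Klf1 read 12.30 and 11.61 in LSK, well above the filter, against 13.88 and 13.40 in MP. All 9 granulocyte and monocyte progenitor markers (median -1.09) and all 4 mast cell and basophil markers past the filter fell in LSK as well. The part of any of these cell types in the differences of Slc16a1, Hk1 and Aldoa was not tested. Beside the 10 genes that rose, 5 of 6 megakaryocyte markers also rose in LSK (median 1.04), as did 3 of the 4 lymphoid priming markers past the filter. The part of megakaryocyte and lymphoid-primed cells in the 10 differences was not tested either.

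The promoters of Ldha, Ldhb and Slc16a1 are shown as examples from the lactate branch that differ in direction and in number of cores. The number of cores was not tested against the direction in LSK. Ldha, which did not pass, has 5 ACGTG matches in the window of the first of its 2 starts, of which 2 pairs overlap as CACGTG (at 145 and 48 bases). Slc16a1, which fell, has 4 matches, and Ldhb, which rose, has 1 GCGTG match at 126 bases.
Ldha, chr7:46845554-46845803, plus strand: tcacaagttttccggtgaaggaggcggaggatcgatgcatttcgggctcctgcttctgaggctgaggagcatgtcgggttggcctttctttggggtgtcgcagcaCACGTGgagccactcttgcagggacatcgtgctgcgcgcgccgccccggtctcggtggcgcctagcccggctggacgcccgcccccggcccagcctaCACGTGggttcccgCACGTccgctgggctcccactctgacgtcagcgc
Ldhb, chr6:142507958-142508207, minus strand: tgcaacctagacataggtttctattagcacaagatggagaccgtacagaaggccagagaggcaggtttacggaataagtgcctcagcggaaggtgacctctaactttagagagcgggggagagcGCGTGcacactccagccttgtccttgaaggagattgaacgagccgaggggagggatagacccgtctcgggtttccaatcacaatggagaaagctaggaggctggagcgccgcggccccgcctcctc
Slc16a1, chr3:104638414-104638663, plus strand: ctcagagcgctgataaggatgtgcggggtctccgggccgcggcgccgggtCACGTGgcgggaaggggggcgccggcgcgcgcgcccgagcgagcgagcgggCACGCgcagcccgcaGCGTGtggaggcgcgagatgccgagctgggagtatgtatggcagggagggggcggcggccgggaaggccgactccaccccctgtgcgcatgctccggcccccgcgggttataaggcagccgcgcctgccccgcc

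Pyruvate dehydrogenase and its kinases, which switch it off by phosphorylation, had no gene that passed among the 3 past the filter. Pdk1, a hypoxia target, read 12.77 and 12.83 in LSK against 12.60 and 12.61 in MP, a difference of 0.19 ± 0.07 (SE, adjusted p = 0.0976 by limma), and its other probe sets gave 0.14 and 0.30. Pdk3 differed by 0.32 (adjusted p = 0.0539) with LSK above MP in both pools. Pdha1, the catalytic alpha subunit gene, differed by -0.16 without passing, whereas its second probe set gave -0.65 and passed. Pdk2 and Pdk4 were dim on all arrays, at 6.51 to 6.88 and 4.53 to 4.80.

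Of the further hypoxia targets 2 of 4 rose in LSK. Car9, a membrane carbonic anhydrase and a widely used hypoxia marker, read 9.35 and 9.31 in LSK against 8.53 (WT) and 8.84 (Smo-deficient) in MP, a difference of 0.64 ± 0.13 (SE, adjusted p = 0.0154 by limma). Bnip3, which promotes mitophagy, read 10.73 and 10.95 in LSK against 10.32 and 10.53 in MP and rose by 0.41 ± 0.11 (adjusted p = 0.0346), with 0.41 and 0.42 in the 2 pools. Vegfa, the angiogenic growth factor gene, differed by 0.13 and had opposite signs in the pools (-0.14 in WT and 0.40 in Smo-deficient). Adm, the gene of the vasodilator adrenomedullin, differed by -0.09 at a level of 7.69 to 7.82. The promoters of Car9 and Bnip3, which rose, hold 1 and 5 matches, the one of Car9 on the other strand 18 bases before the start. Of the 5 in Bnip3, 2 overlap as CACGTG. Vegfa and Adm, which did not pass, hold matches as well, Vegfa 2 before 1 of its 2 starts and Adm 2.
Car9, chr4:43506776-43507025, plus strand: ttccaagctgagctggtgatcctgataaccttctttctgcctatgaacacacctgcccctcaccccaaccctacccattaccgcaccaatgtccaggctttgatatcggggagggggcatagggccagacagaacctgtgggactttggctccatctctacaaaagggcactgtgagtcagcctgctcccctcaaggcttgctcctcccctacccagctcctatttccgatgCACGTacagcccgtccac
Bnip3, chr7:138909507-138909756, minus strand: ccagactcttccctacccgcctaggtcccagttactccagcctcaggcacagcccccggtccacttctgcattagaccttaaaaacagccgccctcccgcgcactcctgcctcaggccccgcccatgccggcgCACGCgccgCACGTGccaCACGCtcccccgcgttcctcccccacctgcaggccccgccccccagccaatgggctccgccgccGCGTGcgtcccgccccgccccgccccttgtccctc

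**Figure D3:**
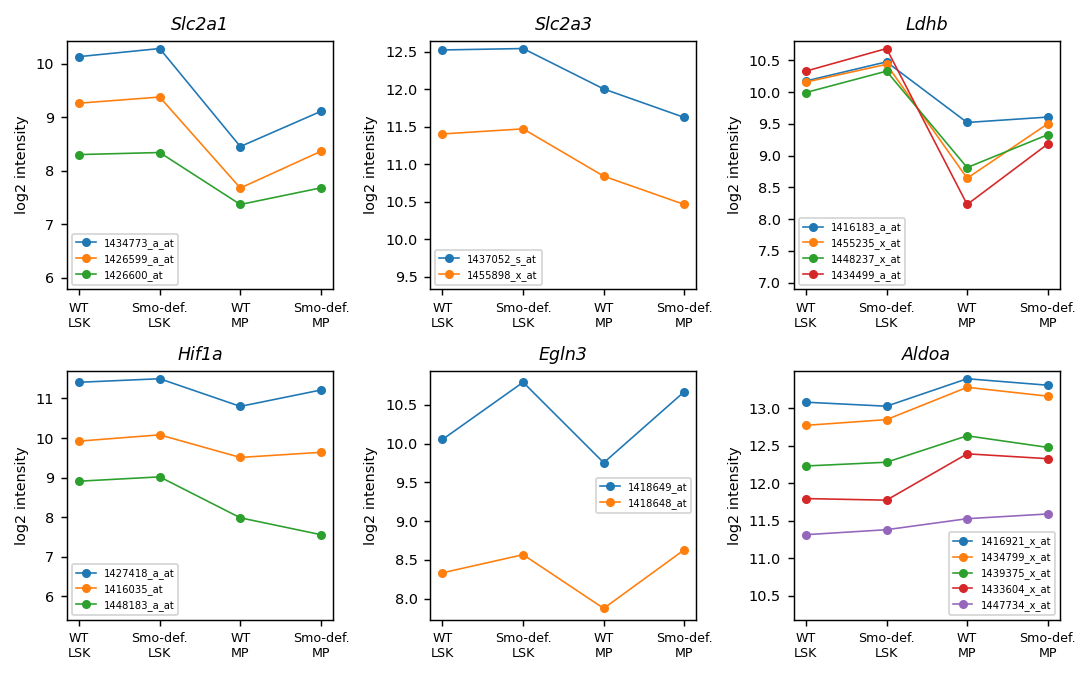
Log2 intensity (y axis, a different range in each panel) of every probe set past the filter for 6 genes, on the 4 arrays along the x axis. Lines join the values of 1 probe set and stand for no order. The 3 Slc2a1 and 4 Ldhb probe sets are lower on both MP arrays, the 5 Aldoa probe sets are higher there, and both Egln3 probe sets are higher in Smo-deficient than in WT cells of each population.

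Few of these genes differed by 1.5-fold between genotypes. With 1 array per group there is no replicate check and no p-value, so a gene is described as past a size when the Smo-deficient and WT values differ by at least 1.5-fold (0.58 on the log2 scale). In LSK 2 of 30 genes were higher by this size in Smo-deficient cells (6.67%, against 3.14% of all genes past the filter) and 0 were lower (0.924%). In MP 3 of 30 were higher (10%, against 2.56%) and 0 were lower (2.24%). No gene of the list reached 2-fold in either direction, a size that 0.689% and 0.26% of all genes reached in LSK (higher and lower) and 0.269% and 0.294% in MP. The median genotype difference over the 34 genes was 0.04 in LSK and -0.02 in MP, against -0.03 in both over all named genes. Both genotype differences were above 0 for 12 of the 30 genes (40%, against 26.6% of all genes) and below 0 for 10 (33.3%, against 39.4%). Genotype, the mix of sexes and any other difference between the pools cannot be told apart.

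Egln3, a prolyl hydroxylase gene that is itself induced by hypoxia-inducible factors, was higher in Smo-deficient cells of both populations. It read 10.05 (WT) and 10.79 (Smo-deficient) in LSK, and 9.75 (WT) and 10.67 (Smo-deficient) in MP. Both Smo-deficient values lay above both WT values, with differences of 0.74 (1.67-fold) in LSK and 0.92 (1.89-fold) in MP. A second probe set gave 0.76 in MP but 0.23 in LSK, so the size in LSK differed between probe sets. The difference in MP ranged from 0.84 to 1.03 over the alternatives. The promoter of Egln3 holds 1 ACGTG match, 229 bases before the start.
Egln3, chr12:54203875-54204124, minus strand: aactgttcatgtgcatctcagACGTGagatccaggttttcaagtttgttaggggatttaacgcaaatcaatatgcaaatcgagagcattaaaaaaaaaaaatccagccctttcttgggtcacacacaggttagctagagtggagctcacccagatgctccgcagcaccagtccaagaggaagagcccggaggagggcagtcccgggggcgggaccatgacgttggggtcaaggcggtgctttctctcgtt

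The remaining genes were past 1.5-fold in 1 population each. Aldoc was higher in Smo-deficient LSK by 0.80 (1.74-fold), from 9.05 to 9.85, and by 0.08 in MP, where both values were close to the filter level. Slc2a1 was higher in Smo-deficient MP by 0.66 (1.58-fold), from 8.46 to 9.11, with 0.69 and 0.31 on its other probe sets, and by 0.15 in LSK. Pkm was higher in Smo-deficient MP by 0.64 (1.56-fold), from 11.86 to 12.50, and by 0.03 in LSK. For Slc2a1 and Pkm, the Smo-deficient MP value was thus nearer to the LSK values than the WT MP value was.

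On their brightest probe sets the other members stayed within 1.5-fold of WT. On its second probe set Hk1 was lower in Smo-deficient MP by more than that (-0.64), against -0.25 on the brightest. Ldhb differed by 0.30 in LSK and 0.09 in MP on its brightest probe set, while the other 3 gave 0.52 to 0.95 in MP, so its MP difference depended on the probe set. Hif1a differed by 0.09 in LSK and 0.41 in MP, with 0.13 and -0.43 in MP on the other probe sets. In MP the most negative differences were those of Pfkm (-0.54), Slc16a1 (-0.53), Vegfa (-0.43) and Slc2a3 (-0.38). In LSK they were those of Hk1 (-0.31), Ldha (-0.29), Slc16a1 (-0.29) and Pfkl (-0.29). Bnip3 differed by 0.22 and 0.21 in LSK and MP, Car9 by -0.03 and 0.32, Hk2 by 0.10 and 0.07, and Pgk1 by -0.05 in each.

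Marker genes of several cell types also differed between genotypes. The summed intensity of 9 granulocyte and monocyte progenitor markers went from 46319 (WT) to 65548 (Smo-deficient) in LSK, and from 84193 (WT) to 120694 (Smo-deficient) in MP, with all 9 higher in both. The erythroid progenitor sum given above was lower in Smo-deficient cells, with 8 of 10 markers lower in LSK and 10 of 10 in MP. Mature erythroid markers went the other way, with all 3 measured, 2 of them past the filter, higher in both populations. All 7 neutrophil, all 6 lymphoid priming and all 5 B cell markers measured were higher in Smo-deficient cells of both populations. Macrophage markers were higher in 7 of 7 (LSK) and 3 of 7 (MP), and megakaryocyte markers in 0 of 6 (LSK) and 3 of 6 (MP). Of the stem cell markers 5 of 7 were higher in Smo-deficient cells of each population. The 9 proliferation genes had a median difference of -0.29 in LSK and -0.32 in MP, and 0 and 1 of them were above 0. The part of these cell types and of proliferation in the values of Egln3, Aldoc, Slc2a1, Pkm, Pfkm and Slc16a1 was not tested.

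**Figure D4:**
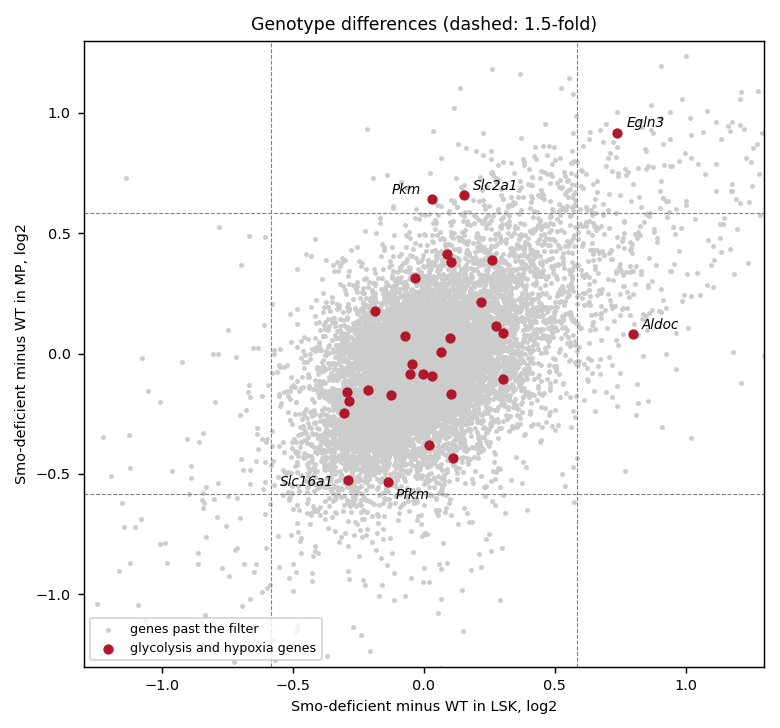
Smo-deficient minus WT in log2 intensity, in LSK (x axis) and in MP (y axis), for the 30 genes past the filter (red) and all genes past the filter (grey). The dashed lines mark 1.5-fold, and 46 grey genes lie outside the plotted range of 1.3. Egln3 is past the lines in both populations, Aldoc in LSK, and Slc2a1 and Pkm in MP.

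The genotype difference in LSK was set against that in MP gene by gene. It was at least 1.5-fold larger in LSK for 1 gene, Aldoc (0.72), and at least 1.5-fold smaller for 1 gene, Pkm (-0.61), where 2.67% and 0.84% of all genes lay past these sizes. Vegfa (0.54) and Slc2a1 (-0.51) were the next in size among the 30. These values use all 4 arrays and could not be tested.

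A further 81 measured genes of the same pathways were read for context, of which 73 were past the filter. Of the 73, 12 rose in LSK (16.4%, the same share as among all genes) and 13 fell (17.8%, against 7.54%). At 1.5-fold or more, 5 rose (6.85%, against 9.69%) and 5 fell (6.85%, against 2.92%). The median difference was -0.05 over the 81 genes and also over the 73. It was -0.04 over all named genes and 0.0005 over all genes past the filter. Of 16 other glycolysis genes past the filter 2 rose and 4 fell, with Pklr, the pyruvate kinase isozyme of liver and red cells, at -1.97 ± 0.15 (SE, adjusted p = 0.000516 by limma) and the glucose transporter gene Slc2a8 at -0.64. A further glucose transporter gene, Slc2a6, fell by 0.56 on the log2 scale (adjusted p = 0.013 by limma) and is named because its direction opposes that of Slc2a1 and Slc2a3, a choice made after its value was seen. Pentose phosphate genes, whose pathway makes NADPH and ribose, had 0 that rose and 2 of 6 that fell. Of 12 genes of pyruvate entry and gluconeogenesis 1 rose, the fructose bisphosphatase gene Fbp1 (1.81), which runs against glycolysis, and 3 fell.

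Of 12 other oxygen sensing genes 2 rose and 2 fell, with the transcriptional coregulator gene Cited4 at -2.48. Among 27 hypoxia-linked genes 7 rose and 2 fell. The 7 included Meis1 (2.22), a stem cell factor that is also on the stem cell marker list, the transglutaminase gene Tgm2 (2.10), the stress-responsive gene Ndrg1 (1.36) and the adenylate kinase gene Ak4 (1.01). The 2 that fell were the transferrin receptor gene Tfrc (-1.30), which is also on the erythroid list, and Angptl4 (-0.76).

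By genotype, LSK had 2 of these 73 genes past 1.5-fold and higher without Smo (2.74%, against 3.14% of all genes), Fbp1 (0.85) and the histone acetyltransferase gene Crebbp (0.62), and 1 was lower (1.37%, against 0.924%), Cited4 (-1.15). In MP 5 were higher (6.85%, against 2.56%), Fbp1 (0.84), Ak4 (0.75), the monocarboxylate transporter gene Slc16a7 (0.75), the myeloid hexokinase gene Hk3 (0.69) and the chemokine receptor gene Cxcr4 (0.68). The 5 that were lower in MP (6.85%, against 2.24%) were Ddit4 (-2.45), an mTOR inhibitor induced by hypoxia and other stress, Tgm2 (-1.17), Cited4 (-0.72), Pklr (-0.68) and Tfrc (-0.59). Ddit4 in LSK differed by 0.47, the opposite sign.

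**Figure D5:**
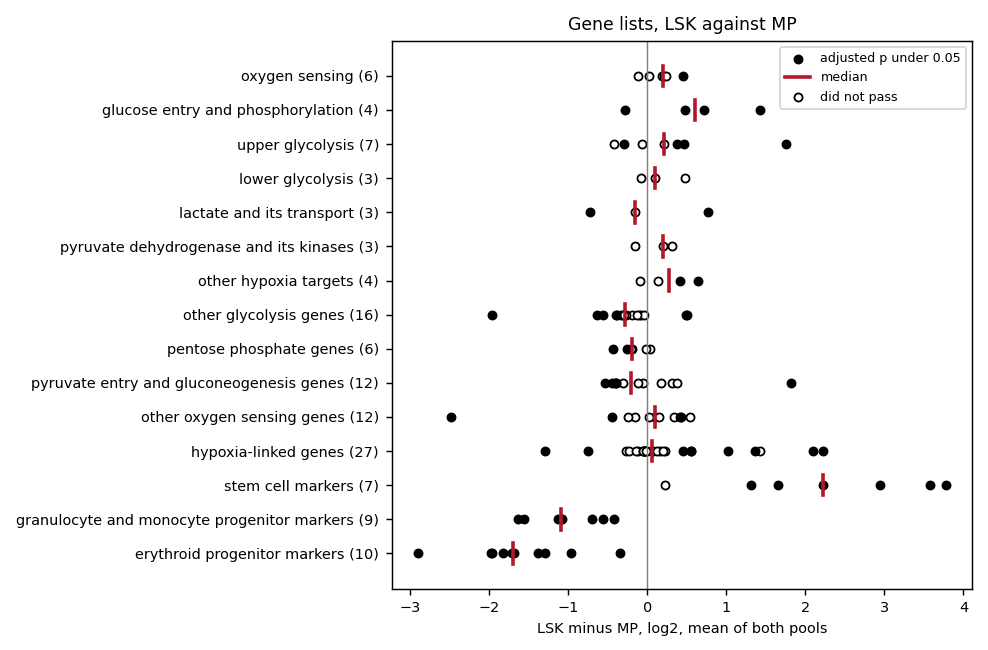
LSK minus MP in log2 intensity, mean of both pools (x axis), for each gene past the filter in 15 lists (rows, number of genes in brackets). Filled points passed at an adjusted p under 0.05, open points did not, and the red bar is the median. Glucose entry and phosphorylation has the highest median among the 7 roles of the glycolysis and hypoxia genes (0.60), between the stem cell markers (2.22) and the erythroid progenitor markers (-1.70).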

How the data were processed

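Total RNA of 4 sorted samples was amplified in 2 cycles from 20 ng and hybridised to 1 array each. The authors deposited 1 table of intensity values, made with RMA per the submitters' processing notes. The sources used here give no version. The values span 12.3 to 44290.5, which makes them linear, and they were converted to log2 with no pseudocount. RMA draws arrays towards a common distribution, which can remove a change shared by most genes. The deposited values still differed in their upper quartile. In log2 it was 9.21 (WT) and 9.26 (Smo-deficient) in LSK, against 9.14 (WT) and 9.09 (Smo-deficient) in MP. The 64 control probe sets were set aside. The platform's annotation table gives 1 gene symbol for 34945 probe sets, several for 932 (not used for naming) and none for 9160, and all 75 probe sets of these genes matched RefSeq by Entrez identifier.

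LSK was tested against MP with limma 3.58.1 in R 4.3.3 (lmFit, eBayes with trend, two-sided), with the pool as a block because both populations of a genotype were sorted from the same mice. That leaves 1 residual degree of freedom before moderation. The procedure was tested on simulated data. Genotype has 1 array per group and no test. Every member is named, with all 4 values where it passed or differed by at least 1.5-fold between genotypes. Other pathway genes are named at 1.5-fold. Alternatives were quantile and cyclic loess normalization, an offset of 50, other filters, the median over probe sets, no block, no trend and each pool alone. The genes and lists were chosen with earlier results of these data known.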

Additional observations from a re-analysis of the deposited data

How the results depend on the processing

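With 10 genes of the list that rose and 3 that fell in LSK against MP, the counts were most affected by the pairing. Without the replicate block for the pool, 2 rose and 0 fell, and 1058 probe sets passed in place of 5013. Without the mean-variance trend 1 fell (Slc16a1), and by the median over the probe sets of a gene 5 fell. In the other settings 8 to 11 rose and 2 to 4 fell. Among all probe sets, 67.7% of calls were higher in LSK, but 53.7% after quantile normalization (2986 higher and 2570 lower, against 3395 and 1618), where 8 genes of the list rose and 4 fell.

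At 1.5-fold 5 genes were higher and 1 lower in LSK. Leaving out 1 pool gave 4 to 6 higher and 1 to 2 lower, the second being Pfkm in the WT pool, and the median over probe sets gave 0 lower. By that median, 0 genes were 1.5-fold higher in Smo-deficient LSK in place of 2, since Egln3 (0.49) has a second probe set with a smaller difference and the median of Aldoc (0.63) falls below the filter. The difference of genotype differences then passed 1.5-fold for 1 gene in place of 2. The choice to leave out probe sets with the suffix _x_at or _s_at was made after seeing the data and changed no other count by over 1.5 times. Signal near background limits Eno2, Slc16a3, Pdk2 and Pdk4, and 1 array per group limits every genotype difference.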
